A study of Ovis aries with 2 samples.

Results

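FCER2-positive B cells are blood B cells in which at least 1 transcript of FCER2 was counted. They were selected on measured counts, in single-cell libraries of sheep peripheral blood mononuclear cells, and 100 of 17540 kept barcodes met the definition. A barcode was kept with at least 200 genes and at most 15% of its unique molecular identifiers (UMIs, 1 for each captured transcript molecule) from mitochondrial genes. A member had at least 4 UMIs summed over MS4A1, CD79B, PAX5 and BANK1, which mark B cells. It had 0 UMIs of the T-cell receptor chains CD3D and CD3E and at least 1 UMI of FCER2. It had at most 1 UMI of MZB1 plus DERL3, genes of the antibody-secreting machinery, at most 1 of SOX5 and at most 1 of NPAS3. B cells that met every part of this definition except the one on FCER2 are called conventional B cells below.

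The A.G.-ES library came from sheep that had an implant placed at ST36 on both sides before the blood was drawn, and the untreated library from sheep that received nothing. ST36 is an acupuncture point below the knee. The series title speaks of weaned lambs and of a drug-eluting suture loaded with 2 plant saponins, astragaloside IV (from Astragalus) and glycyrrhizic acid (from liquorice). The labels give 1 library to each treatment, with no breed, sex or number of animals, and cells were processed without culture on a droplet platform that reads the 3′ ends of transcripts. With 1 library per treatment no test was possible, and every 95% interval given here covers counting error only.

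FCER2 encodes CD23, the low-affinity receptor for IgE. On B cells of mouse and human it binds IgE and the complement receptor CR2, can be cut from the surface by the protease ADAM10, and is induced by interleukin 4 and by NOTCH2 signalling. Resting naive follicular B cells carry it, and it is lost as cells become antibody-secreting. BACH2, FOXO1, CCR7 and BTLA are other genes of resting or circulating B cells, and TBX21, ZEB2 and ITGAX are genes of the so-called atypical B cells. Sheep FCER2 lies on chromosome 5 of the RefSeq assembly ARS-UI_Ramb_v3.0.

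The A.G.-ES library held 9638 barcodes and 44485442 UMIs, of which 9452 barcodes were kept, and the untreated library held 8246 barcodes and 55861418 UMIs, of which 8088 were kept. Members had a median of 4441 UMIs in the A.G.-ES library (range 2011 to 13111) and 6649 in the untreated library (range 2003 to 11891). Their mitochondrial share had a median of 1.77% in A.G.-ES and 1.15% in untreated cells. The libraries shared 60 kept barcodes, 0 of them between members, and 1 A.G.-ES member had a barcode that a kept untreated cell also had. Genes of the Y chromosome gave 3 UMIs in 3 of 79 A.G.-ES members and 102 UMIs in 20 of 21 untreated members. That difference and the treatment cannot be told apart in any comparison between the libraries.

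FCER2-positive B cells were 79 of 9452 kept A.G.-ES barcodes, or 0.836% (0.662 to 1.04%), and 21 of 8088 kept untreated barcodes, or 0.260% (0.161 to 0.397%). Among conventional B cells they were 79 of 425 in the A.G.-ES library, or 18.6% (15 to 22.6%), against 21 of 309 in the untreated library, or 6.80% (4.26 to 10.2%). The intervals of the libraries did not overlap on either denominator. Conventional B cells were themselves 29.2% of 1455 A.G.-ES B cells and 9.41% of 3282 untreated B cells. Most other B cells had at least 2 UMIs of SOX5, a transcription factor gene. These SOX5-high cells were 55.5% of A.G.-ES and 85.6% of untreated B cells. A deeper cell reaches 2 SOX5 UMIs more easily, and B cells had a median of 5298 UMIs in A.G.-ES and 8810.5 in untreated. With cells thinned to 2000 UMIs before the definition was applied, conventional B cells numbered 569 in A.G.-ES and 781 in untreated. The higher share of members among kept barcodes therefore stood beside a different make-up of the B cells as gated. How far that make-up follows depth was not tested, and shares of a sample do not give numbers of cells in blood.

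A single FCER2 UMI decided most memberships. In the A.G.-ES library 62 of the 79 members had 1 FCER2 UMI, 12 had 2, 4 had 3 and 1 had 4. In the untreated library 14 of the 21 had 1 UMI, 4 had 2, 1 had 3 and 2 had 5. Just outside the threshold lay 346 A.G.-ES and 288 untreated conventional B cells with 0 FCER2 UMIs, among which cells that express the gene at a low level cannot be told from cells that lack it. At the other gate, 5 A.G.-ES and 0 untreated members had the minimum of 4 B-cell UMIs, and 12 A.G.-ES cells and 1 untreated cell missed membership with 3.

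A deeper cell meets the FCER2 threshold more easily, so every cell was thinned at random to 2000 UMIs and shallower cells were left out. FCER2 was then seen in 12.4% of 396 A.G.-ES conventional B cells (9.30 to 16.0%) and in 4% of 250 untreated ones (1.93 to 7.23%). At this depth 29 A.G.-ES and 59 untreated conventional cells were left out. Thinned to 1000 UMIs, the shares were 6.05% in A.G.-ES and 3.45% in untreated cells, and at 4000 UMIs they were 17.8% in A.G.-ES and 5.98% in untreated cells. The intervals of the libraries did not overlap at 2000 and 4000 UMIs and did at 1000.

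Detection of FCER2 extended beyond the members. Thinned to 2000 UMIs, 15.8% of A.G.-ES B cells with at least 2 UMIs of MZB1 or DERL3 had FCER2 (10.5 to 22.5%), against 5.59% of such untreated cells (2.59 to 10.3%). SOX5-high B cells had it in 4.42% of A.G.-ES cells (3.10 to 6.09%) and in 1.32% of untreated cells (0.925 to 1.82%). Monocyte-gated cells had it in 4.44% of 90 A.G.-ES cells and 3.03% of 33 untreated cells. CD3-positive cells, which should lack the gene, had it in 0.146% of A.G.-ES cells (0.0586 to 0.300%) and in 0.436% of untreated cells (0.218 to 0.778%). Without thinning, the share was 0.389% in A.G.-ES CD3-positive cells with a median of 4169.5 UMIs, and 0.777% in untreated ones with a median of 4081.5. The shares in conventional B cells lay above those of CD3-positive cells in both libraries, and the CD3-positive share was the lower one in the A.G.-ES library. Thinned to 2000 UMIs, the intervals of MZB1 or DERL3-high cells and of monocyte-gated cells overlapped those of conventional B cells in both libraries. How much of the FCER2 signal came from stray transcripts was not tested. Of all FCER2 UMIs of a library, members held 18.3% in A.G.-ES (102 of 557) and 9.19% in untreated (35 of 381).

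**Figure D1:**
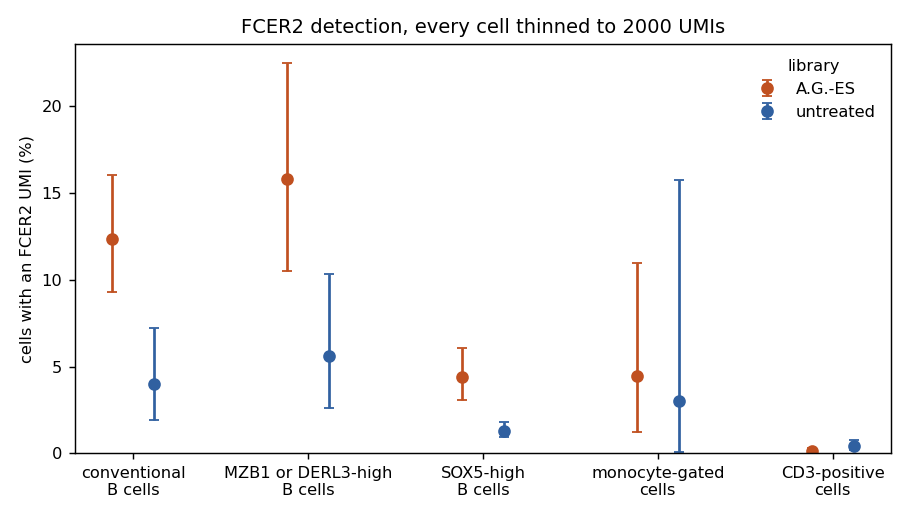
Share of cells with an FCER2 UMI (%, vertical axis) in 5 groups of cells (horizontal axis), with every cell thinned to 2000 UMIs. Points are libraries, A.G.-ES left and untreated right within each group, and bars are exact 95% binomial intervals; conventional B cells reached 12.4% in A.G.-ES and 4% in untreated, and CD3-positive cells 0.146% in A.G.-ES and 0.436% in untreated.

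The members carried the identity of B cells in genes that the definition had not used. CD79A, the partner of CD79B in the B-cell receptor, was found in 73 of 79 A.G.-ES members, with a median of 3 UMIs and at most 11, and in 19 of 21 untreated members, with a median of 4 and at most 14. CD74, the invariant chain of MHC class II, was found in every member, with a median of 24 UMIs in A.G.-ES (range 8 to 51) and 33 in untreated (range 9 to 79). EBF1, a transcription factor of B-cell identity, was found in 63 of 79 A.G.-ES members and 19 of 21 untreated members. MEF2C, a transcription factor that acts downstream of the B-cell receptor, was found in 73 of 79 A.G.-ES members and in all 21 untreated members. CR2, which encodes a ligand of CD23, had 0 UMIs in A.G.-ES members and 2 in untreated members. DTX1, a NOTCH-responsive gene, had 0 in both. ITGAX had 2 UMIs in A.G.-ES and 0 in untreated members, and the division genes MKI67 and TOP2A had 2 and 1 in A.G.-ES and 0 in untreated.

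Markers of other blood cells were low but not absent. The T-cell list summed to 119 UMIs per 1000000 (CPM) in A.G.-ES members and 49.6 CPM in untreated members, and the monocyte list to 63.4 CPM in A.G.-ES and 7.08 CPM in untreated members. The list of natural killer and cytotoxic markers summed to 42.2 CPM in A.G.-ES and 0 CPM in untreated members, and the list of platelet and red cell markers to 5.28 CPM in A.G.-ES and 35.4 CPM in untreated members. GNLY, a cytotoxic granule protein, had 1 UMI in each of 8 A.G.-ES members, and CD14 had 0 UMIs in every member. In 3 A.G.-ES members, or 3.80% (0.790 to 10.7%), at least 3 UMIs of the monocyte list were counted, and in 0 of the 21 untreated members. These 3 cells held all 10 UMIs of CSF1R, the receptor for macrophage colony-stimulating factor, and all 5 of LYZ, lysozyme. Both genes belong to the list that picked the cells, so this followed in part from that choice. Doublet scoring took out 715 A.G.-ES and 523 untreated barcodes and 0 members. Whether the 3 cells are single cells was not tested.

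**Figure D2:**
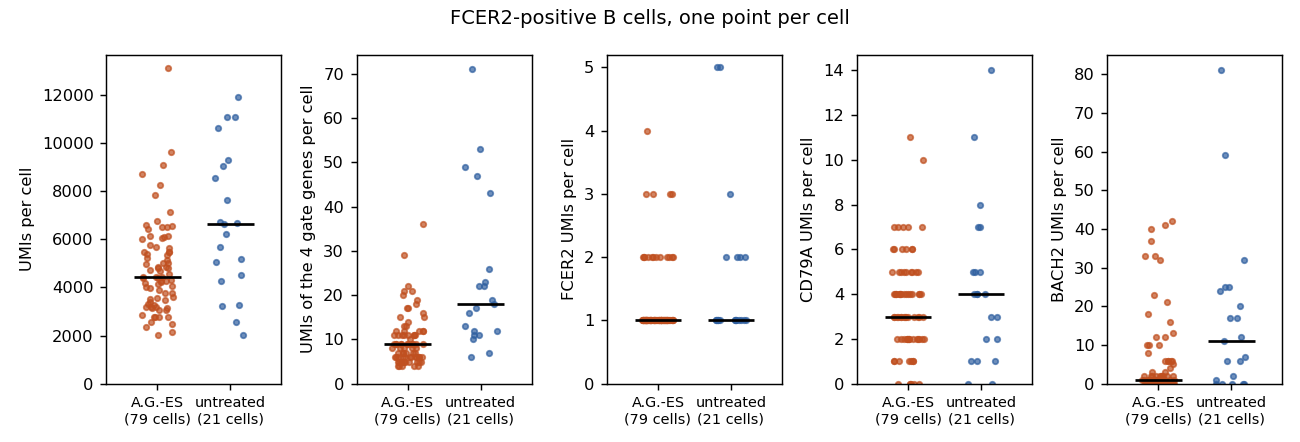
Total UMIs, UMIs summed over MS4A1, CD79B, PAX5 and BANK1, and UMIs of FCER2, CD79A and BACH2 (vertical axes, per cell) in the 79 A.G.-ES members (left in each panel) and the 21 untreated members (right). Points are cells, spread sideways at random, and lines are medians; the summed B-cell UMIs had a median of 9 in A.G.-ES and 18 in untreated members, and BACH2 a median of 1 in A.G.-ES and 11 in untreated.

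Members were first compared with all other kept barcodes of their own library, and the definition had already required 0 UMIs of CD3D and CD3E. Of 11370 genes with at least 50 UMIs in each library, 662 (5.82%) were at least 1.5-fold higher in members in both libraries and 668 (5.88%) at least 1.5-fold lower. CD40, the receptor through which helper T cells stimulate B cells, had 92.4 CPM in members and 14.9 CPM in other barcodes of the A.G.-ES library (ratio 6.19, 4.28 to 8.70). In the untreated library it had 198 CPM in members and 31.4 CPM in other barcodes (ratio 6.32, 4.19 to 9.17). BTLA, an inhibitory receptor of resting lymphocytes, stood at 73.9 CPM in members and 13.5 CPM in other A.G.-ES barcodes (ratio 5.46), and at 106 CPM in members and 13.0 CPM in other barcodes in the untreated library (ratio 8.15). SLC38A4, an amino acid transporter, had ratios of 6.22 in A.G.-ES and 9.68 in untreated, and CCSER1 of 4.76 in A.G.-ES and 8.59 in untreated. NREP had a ratio of 5.73 in A.G.-ES and 6.16 in untreated. SLC15A2, SIPA1L2, ELL3, GAB1, CLCN4, DCBLD2 and TMEM67 completed the 12 highest, each on 2 to 9 member UMIs per library. Among the lowest were RORA, GATA3 and BCL11B, transcription factors of T cells, with 1 to 7 UMIs in the members of a library. RNF144A, LDLRAD4 and GNLY were the other 3. Of the 14 measured T-cell markers 8 were lower in members in both libraries, as were 3 of 7 cytotoxic markers and 5 of 21 division genes.

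The label of these cells calls them naive-like, and this was looked at first against SOX5-high B cells, a comparison added after the data had been seen. Of 7215 genes, 408 (5.65%) were at least 1.5-fold higher in members in both libraries and 439 (6.08%) lower. The list of naive B genes had 12 measured members outside the definition, of which 5 were higher in both libraries and 0 lower. Among them were BTLA, BACH2, VPREB3 and IL4R. BTLA had 73.9 CPM in members and 18.8 CPM in SOX5-high cells of the A.G.-ES library (ratio 3.93, 2.49 to 6.01). The untreated library gave 106 CPM in members and 12.4 CPM in SOX5-high cells (ratio 8.57, 4.74 to 14.3).

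BACH2, a repressor that holds B cells back from becoming antibody-secreting, had 1307 CPM in members and 542 CPM in SOX5-high cells of the A.G.-ES library (ratio 2.41, 2.19 to 2.65). In the untreated library it had 2444 CPM in members and 580 CPM in SOX5-high cells (ratio 4.21, 3.78 to 4.69). VPREB3, which is made by early and some mature B cells, had ratios of 2.32 in A.G.-ES and 2.42 in untreated. CCR7, a receptor for lymph node chemokines, was apart in the untreated library alone, at 79.2 CPM in members and 85.9 CPM in SOX5-high cells of the A.G.-ES library and at 283 CPM in members and 82.6 CPM in SOX5-high cells in the untreated library. Of 11 measured memory and activation genes, 3 were higher in members in both libraries and 0 lower, so that the naive list was not alone in this. The memory marker CD27 was also higher in members, with log2 ratios of 1.23 in A.G.-ES, on 12 member UMIs, and 2.67 in untreated, on 6.

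Other genes apart from SOX5-high cells formed several groups. MEF2C had ratios of 2.71 in A.G.-ES and 2.87 in untreated, and IRF8, another B-cell transcription factor, 2.47 in A.G.-ES and 3.60 in untreated. The survival genes BCL2 (ratios of 1.68 in A.G.-ES and 3.08 in untreated) and BCL2A1 (2.08 in A.G.-ES and 3.94 in untreated) were higher, as 2 of 10 genes of the BCL2 family. The A.G.-ES ratio of BCL2A1 rests in part on the 3 members with monocyte transcripts. SGK1, a kinase gene that glucocorticoids induce, ranked first by the smaller of its ratios, 8.33 in A.G.-ES and 5.69 in untreated, the untreated one on 6 member UMIs. TP53INP1, a stress-responsive autophagy gene, stood at 3.86 in A.G.-ES and 8.04 in untreated. ALCAM, an adhesion molecule, stood at 3.44 in A.G.-ES and 7.86 in untreated, and CDKN1A, the cell cycle inhibitor p21, at 3.23 in A.G.-ES and 6.50 in untreated. SLC38A4, LPP, CCSER1, MAP1LC3A, SAMSN1, KCTD7 and STK39 completed the 12 highest, with ratios from 3.03 to 12.2.

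Genes lower in members than in SOX5-high cells included parts of the receptor pathway. SYK, the kinase recruited by the B-cell receptor, had 269 CPM in members and 854 CPM in SOX5-high A.G.-ES cells (ratio 0.32, 0.26 to 0.38), and 425 CPM in members and 952 CPM in SOX5-high cells in the untreated library (ratio 0.45, 0.34 to 0.58). LYN and DOK3 were among those lower too, and in all 4 of 24 receptor genes were lower and 1, MALT1, higher. EBF1 had log2 ratios of -0.73 in A.G.-ES and -0.98 in untreated, and IKZF3, SPIB and BCL11A were lower as well. CD24, a surface sialoglycoprotein, had 87.1 CPM in members and 369 CPM in SOX5-high A.G.-ES cells, and 70.8 CPM in members and 559 CPM in SOX5-high cells in the untreated library. Of the atypical B genes, ZEB2 had log2 ratios of -0.92 in A.G.-ES and -0.83 in untreated, while TNFRSF1B was higher. TBX21, which encodes T-bet, had log2 ratios of -2.78 in A.G.-ES, on 2 member UMIs, and -1.95 in untreated, on 1. AOAH, an enzyme that inactivates endotoxin, had 5 UMIs in A.G.-ES and 1 in untreated members, against 149 CPM in A.G.-ES and 170 CPM in untreated SOX5-high cells. ABTB2, ADGRG5, RNF144A, NAA38, ARHGEF10L, LIMD1, NCF4, TNS3 and MCTP2 were the others of the 12 lowest. SOX5-high cells were deeper, with medians of 6406.5 UMIs in A.G.-ES and 9047 in untreated.

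**Figure D3:**
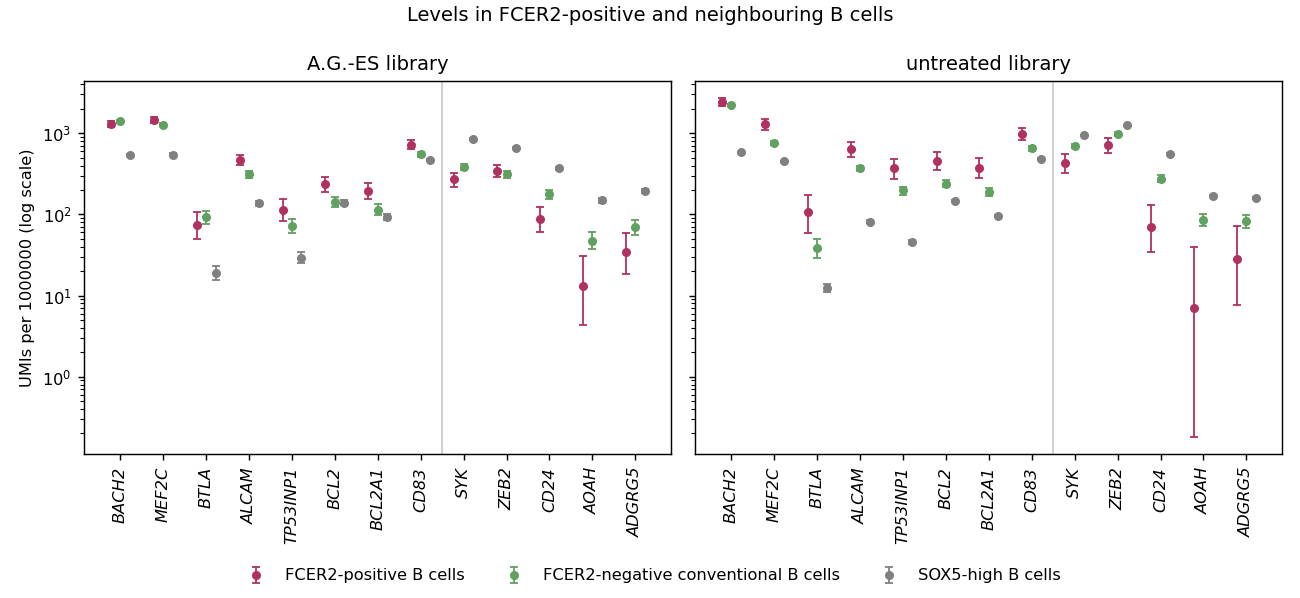
Levels of selected genes (UMIs per 1000000, logarithmic vertical axis) in FCER2-positive B cells, FCER2-negative conventional B cells and SOX5-high B cells of the A.G.-ES library (left) and the untreated library (right). Points are sums over cells and bars exact 95% Poisson intervals; for BACH2 the FCER2-positive and FCER2-negative cells lie together, well above the SOX5-high cells, for BTLA the SOX5-high cells lie lowest in both libraries, and for CD24, AOAH and ADGRG5 members lie lowest.

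Against conventional B cells without an FCER2 UMI, members were far less distinct. Of 3823 genes, 43 (1.12%) were at least 1.5-fold higher in members in both libraries and 84 (2.2%) lower. FCER2-negative cells were shallower, with medians of 3903 UMIs in A.G.-ES and 4852.5 in untreated, against 4441 and 6649 in members. Their shallowest cells had 513 UMIs in A.G.-ES and 522 in untreated, against 2011 and 2003 in members. Doublet scoring marked 2 A.G.-ES and 12 untreated FCER2-negative cells. With doublets taken out, 37 genes were higher and 76 lower of 3751. Of the 10 measured naive B genes outside the definition 0 were apart in both libraries in either direction. BACH2 had 1307 CPM in members and 1407 CPM in FCER2-negative A.G.-ES cells (ratio 0.93, 0.84 to 1.03), and 2444 CPM in members and 2208 CPM in FCER2-negative cells in the untreated library (ratio 1.11, 0.99 to 1.24). Thinned to 2000 UMIs, BACH2 was seen in 50.6% of A.G.-ES members (39.1 to 62.1%) and 53.9% of FCER2-negative cells (48.3 to 59.5%). In the untreated library it was seen in 66.7% of members (43.0 to 85.4%) and 56.8% of FCER2-negative cells (50.1 to 63.3%). BTLA had ratios of 0.81 (0.52 to 1.22) in A.G.-ES and 2.76 (1.45 to 4.92) in untreated. Of the 6 measured memory and activation genes 0 were apart in both libraries too. Neither list therefore set FCER2-positive cells apart from FCER2-negative ones.

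Survival genes were among the few genes higher in members than in FCER2-negative cells. BCL2 had 235 CPM in members and 143 CPM in FCER2-negative A.G.-ES cells (ratio 1.65, 1.27 to 2.12), and 453 CPM in members and 239 CPM in FCER2-negative cells in the untreated library (ratio 1.90, 1.43 to 2.48). BCL2A1, a BCL2 relative that NF-kB induces, had 195 CPM in members and 114 CPM in FCER2-negative cells in the A.G.-ES library (ratio 1.71, 1.28 to 2.27) and 375 CPM in members and 191 CPM in FCER2-negative cells in the untreated library (ratio 1.96, 1.44 to 2.64). In the untreated library 1 member held 20 of the 64 BCL2 UMIs. Monocyte-gated cells had BCL2A1 at 907 CPM in A.G.-ES and 1093 CPM in untreated. Without the 3 A.G.-ES members with monocyte transcripts, the BCL2A1 log2 ratio of A.G.-ES over untreated members went from -0.94 to -1.55. Part of its A.G.-ES level in members therefore lay in those cells, and its ratio to FCER2-negative cells without them was not computed. BCL2 and BCL2A1 were 2 of 7 measured genes of the BCL2 family. MALT1, the paracaspase that links the B-cell receptor to NF-kB, had ratios of 1.58 (1.24 to 2.01) in A.G.-ES and 1.53 (1.10 to 2.07) in untreated, as 1 of 19 receptor genes. STAT6, which carries the interleukin 4 signal to the FCER2 gene in mouse and human, had log2 ratios of 0.59 in A.G.-ES and 0.84 in untreated, and was the 1 of 11 measured genes of the CD23 list that was apart.

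HIPK2, a nuclear kinase, ranked first by the smaller of its ratios, at 219 CPM in members and 104 CPM in FCER2-negative A.G.-ES cells (ratio 2.12, 1.60 to 2.79) and 333 CPM in members and 135 CPM in FCER2-negative cells in the untreated library (ratio 2.46, 1.75 to 3.39). B3GNT5, a glycolipid-building enzyme, had ratios of 2.00 in A.G.-ES and 1.77 in untreated. TP53INP1 had ratios of 1.56 in A.G.-ES and 1.87 in untreated, and MAP1LC3A, an autophagy protein, of 1.55 in A.G.-ES and 2.28 in untreated. CDC14A, ALMS1, KIAA0232, UBXN7, GPATCH2L and RAB12 completed the 12 highest, with ratios from 1.55 to 1.91. For ALMS1, KIAA0232, UBXN7 and GPATCH2L the untreated interval reached below 1.

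Lower in members than in FCER2-negative cells was CD24, at 87.1 CPM in members and 178 CPM in FCER2-negative cells in the A.G.-ES library (ratio 0.49, 0.33 to 0.71) and 70.8 CPM in members and 275 CPM in FCER2-negative cells in the untreated library (ratio 0.26, 0.12 to 0.48). PLAC8 had ratios of 0.59 (0.48 to 0.73) in A.G.-ES and 0.42 (0.29 to 0.60) in untreated. FGD2, an activator of the GTPase CDC42, had ratios of 0.46 in A.G.-ES and 0.39 in untreated, and ADGRG5, an adhesion G-protein-coupled receptor, of 0.50 in A.G.-ES and 0.35 in untreated. THOC1, RNF130, RTN3, TOR1AIP1, KIAA0040 and PLCL1 completed the lowest, with VCAN and CXCL8. VCAN, a monocyte marker in blood, had 1 UMI in A.G.-ES members and 145 in A.G.-ES FCER2-negative cells, and 0 in untreated members and 273 in untreated FCER2-negative cells. Of these, 143 lay in 6 A.G.-ES and 271 in 10 untreated FCER2-negative cells with at least 3 UMIs of monocyte markers. CXCL8, a neutrophil chemokine gene, had 11 UMIs in A.G.-ES members and 193 in A.G.-ES FCER2-negative cells, and 0 in untreated members and 346 in untreated FCER2-negative cells. The VCAN difference thus lay in a few cells on the FCER2-negative side. VCAN is itself 1 of the monocyte markers that picked these cells, so this followed in part from the selection. CFD and S100A4, not among those markers, had 67 and 93 UMIs in the 6 A.G.-ES cells and 18 and 67 in the 10 untreated cells. Natural killer and cytotoxic markers were also higher on the FCER2-negative side. Their list summed to 97.2 CPM in A.G.-ES and 589 CPM in untreated FCER2-negative cells, against 42.2 CPM in A.G.-ES and 0 CPM in untreated members. TNFAIP3, a feedback inhibitor of NF-kB, was lower as well, as 1 of 14 genes of the BAFF and NF-kB list, with log2 ratios of -0.59 in A.G.-ES and -1.37 in untreated.

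Between the libraries, A.G.-ES members were compared with untreated members over 1592 genes with at least 50 UMIs. Of these, 210 (13.2%) were at least 1.5-fold higher in A.G.-ES and 291 (18.3%) at least 1.5-fold lower, with a median log2 ratio of -0.07 over all. Scaled by the trimmed mean of M-values (TMM) in place of the total, 311 were higher and 157 lower and the median was 0.12. The balance of higher and lower genes therefore depended on the scaling, and list values below are best read against these medians. Counts of list genes called apart are best read against the 13.2% and 18.3% of all genes. No count of this comparison has a replicate behind it, and the sums rest on 79 A.G.-ES cells and 21 untreated cells.

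The B-cell genes used by the definition are given as a description. PAX5 had 327 CPM in A.G.-ES and 630 CPM in untreated members, BANK1 987 CPM in A.G.-ES and 1934 CPM in untreated, CD79B 251 CPM in A.G.-ES and 475 CPM in untreated, and MS4A1 512 CPM in A.G.-ES and 560 CPM in untreated. Membership asked for a fixed number of these UMIs in cells of unequal depth, so no comparison is drawn from them. FCER2 itself had 269 CPM in A.G.-ES and 248 CPM in untreated members, which the definition fixes in part.

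Several genes of resting and circulating B cells were lower in A.G.-ES members. CCR7 had 79.2 CPM in A.G.-ES, with UMIs in 14 of 79 cells, and 283 CPM in untreated members, with UMIs in 12 of 21 cells (ratio 0.28, 0.17 to 0.46). Thinned to 2000 UMIs, it was seen in 12.7% of A.G.-ES members (6.24 to 22%) and 42.9% of untreated members (21.8 to 66.0%). Its ratio was 0.39 in FCER2-negative cells, 1.04 in SOX5-high cells and 2.93 in CD3-positive cells. FOXO1, a transcription factor of naive B cells, had 108 CPM in A.G.-ES and 347 CPM in untreated members (ratio 0.31, 0.20 to 0.48).

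BACH2 had 1307 CPM in A.G.-ES, with a median of 1 UMI and a highest of 42 per cell, and 2444 CPM in untreated members, with a median of 11 and a highest of 81 (ratio 0.54, 0.47 to 0.62). The thinned shares of BACH2 above, 50.6% of A.G.-ES and 66.7% of untreated members, had overlapping intervals. FOXP1, another transcription factor of the naive list, had 293 CPM in A.G.-ES and 800 CPM in untreated members, where 1 cell held 34 of 113 UMIs. Its log2 ratio of -1.45 turned to 0.68 among members with at least 2 FCER2 UMIs. In that setting FOXP1 had fewer UMIs than the count minimum for comparing genes, so no reversal is drawn from it. SATB1 was higher, at 243 CPM in A.G.-ES and 120 CPM in untreated members, with 26 of 92 A.G.-ES UMIs in 1 cell. KLF2 stood at 478 CPM in A.G.-ES and 439 CPM in untreated and TXNIP at 238 CPM in A.G.-ES and 269 CPM in untreated. The naive list thus had 1 gene higher and 3 lower of 6 measured, with a median log2 ratio of -0.54, but thinned to 2000 UMIs the median of the 5 genes measured was 0.32. BACH2 had a log2 ratio of -0.90 over all members, of -1.07 thinned, and of 1.14 among the 17 A.G.-ES and 7 untreated members with at least 2 FCER2 UMIs. In that last setting 2 A.G.-ES cells had 42 and 32 BACH2 UMIs and no other more than 6. The highest untreated cell there had 12. Among 16 measured B-lineage transcription factors 2 were higher, IKZF1 and RUNX3, and 5 lower, and the median was -0.34. Beside the counts of both lists, 13.2% of all genes were higher and 18.3% lower.

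Several genes of survival and NF-kB signalling were lower in the A.G.-ES members. BCL2 had 235 CPM in A.G.-ES and 453 CPM in untreated members (ratio 0.52, 0.37 to 0.73), and BCL2A1 had 195 CPM in A.G.-ES and 375 CPM in untreated (ratio 0.52, 0.36 to 0.75). BCL2L11, which encodes the death-promoting BIM, went the same way, at 137 CPM in A.G.-ES and 276 CPM in untreated members (ratio 0.50, 0.32 to 0.77). MCL1 and PMAIP1 were within 1.5-fold, and the 5 measured genes had a median log2 ratio of -0.94, or -0.29 over 9 genes with no count minimum. Among the 32 A.G.-ES and 8 untreated members with SOX5, NPAS3, MZB1 and DERL3 at 0, BCL2A1 had a log2 ratio of 1.33 and BCL2 of -1.41. Without the 3 A.G.-ES members with monocyte transcripts, BCL2A1 had a log2 ratio of -1.55 and BCL2 of -0.87. The ratio of BCL2 was 0.60 in FCER2-negative cells and 0.95 in SOX5-high cells. Of the 64 BCL2 UMIs of untreated members, 20 lay in 1 cell. The log2 ratio of BCL2 over all members was -0.95, and -1.01 with equal weight of cells.

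All 9 measured genes of the BAFF and NF-kB list had a log2 ratio below 0, and the median was -0.58. Past 1.5-fold were 3 of them, beside 18.3% of all genes lower. RELB, a subunit of the alternative NF-kB pathway, had 73.9 CPM in A.G.-ES and 184 CPM in untreated members (ratio 0.40, 0.23 to 0.71). CD40 had 92.4 CPM in A.G.-ES and 198 CPM in untreated (ratio 0.47, 0.28 to 0.79) and NFKB1 591 CPM in A.G.-ES and 992 CPM in untreated (ratio 0.60, 0.48 to 0.74). REL had 1243 CPM in A.G.-ES and 1863 CPM in untreated members (ratio 0.67, 0.57 to 0.78). TNFRSF13C, the receptor for the survival factor BAFF, had 179 CPM in A.G.-ES and 191 CPM in untreated (ratio 0.94, 0.59 to 1.53). Under TMM scaling TNFRSF13C and TRAF5 lay above 0, and among members with at least 2 FCER2 UMIs NFKB1 had a log2 ratio of 1.20.

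Of 10 measured genes of the glucocorticoid list, 5 were higher and 1 was lower, beside 13.2% of all genes higher and 18.3% lower. TSC22D3, which encodes the glucocorticoid-induced leucine zipper, had 575 CPM in A.G.-ES and 298 CPM in untreated members (ratio 1.93, 1.38 to 2.76). FKBP5, a regulator of the glucocorticoid receptor, had 174 CPM in A.G.-ES and 85.0 CPM in untreated (ratio 2.05, 1.10 to 4.17), with 25 of 66 A.G.-ES UMIs in 1 cell. SGK1 had 129 CPM in A.G.-ES and 42.5 CPM in untreated (ratio 3.04, 1.30 to 8.69), the untreated level on 6 UMIs of which 5 lay in 1 cell. DDIT4, a stress-induced inhibitor of mTOR, had 179 CPM in A.G.-ES and 70.8 CPM in untreated (ratio 2.53, 1.30 to 5.52). ANXA1 was the fifth gene to be higher, with an interval that reached below 1. The receptor gene NR3C1 was lower, at 108 CPM in A.G.-ES and 177 CPM in untreated members (ratio 0.61, 0.36 to 1.05). The median of the 10 was 0.37, but without the 3 A.G.-ES members with monocyte transcripts it was -0.37 over the 8 genes still measured. SGK1 and ANXA1 then had fewer than 50 UMIs and FKBP5 a log2 ratio of 0.32, within 1.5-fold, while TSC22D3 stood at 0.96 and DDIT4 at 1.40.

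Early-response genes were mixed. IER5 had 256 CPM in A.G.-ES and 135 CPM in untreated members, JUND 459 CPM in A.G.-ES and 305 CPM in untreated and DUSP2 185 CPM in A.G.-ES and 106 CPM in untreated, while JUN had 227 CPM in A.G.-ES and 432 CPM in untreated. With these, 3 of 7 were higher and 1 lower, beside 13.2% of all genes higher and 18.3% lower. Their median log2 ratio was 0.39, or -0.61 over 3 genes among members with at least 2 FCER2 UMIs. MX1, a target of interferon, had 148 CPM in A.G.-ES and 220 CPM in untreated members, and EPSTI1 586 CPM in A.G.-ES and 517 CPM in untreated, both within 1.5-fold. Of the 3 interferon genes measured 1 was higher and 0 were lower.

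In the receptor and CD23 lists, PLCG2, a phospholipase of B-cell receptor signalling, had 319 CPM in A.G.-ES and 581 CPM in untreated members (ratio 0.55, 0.41 to 0.74). SYK had 269 CPM in A.G.-ES and 425 CPM in untreated (ratio 0.63, 0.46 to 0.89). INPP5D, the inhibitory phosphatase SHIP1, was higher, at 747 CPM in A.G.-ES and 475 CPM in untreated members (ratio 1.57, 1.20 to 2.09). Of 12 receptor genes 2 were higher and 3 lower, with BCL10 and BLNK the others, shares near the 13.2% and 18.3% of all genes. With SOX5, NPAS3, MZB1 and DERL3 at 0, INPP5D had a log2 ratio of -0.62 and SYK of 0.01, and with at least 2 FCER2 UMIs PLCG2 had 0.01. RBPJ, the DNA-binding partner of NOTCH, had 451 CPM in A.G.-ES and 198 CPM in untreated members (ratio 2.28, 1.52 to 3.53). NOTCH2 had 377 CPM in A.G.-ES and 510 CPM in untreated, and of 6 measured genes of the CD23 list RBPJ was higher and CD40 lower. CD74 had 5372 CPM in A.G.-ES and 5022 CPM in untreated members, and 0 of 3 antigen presentation genes were apart.

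TOX, a nuclear factor of chronically stimulated lymphocytes, had 79 UMIs in 29 of 79 A.G.-ES members and 3 UMIs in 2 of 21 untreated members, or 209 CPM in A.G.-ES and 21.3 CPM in untreated (ratio 9.81, 3.24 to 48.6). ZEB2, of the same list of atypical B genes, was lower, at 346 CPM in A.G.-ES, where 1 cell held 60 of 131 UMIs, and 708 CPM in untreated members. Its log2 ratio was -1.03, or -2.32 without the 3 A.G.-ES members with monocyte transcripts. With SOX5, NPAS3, MZB1 and DERL3 at 0, the log2 ratio of ZEB2 was 2.67 and that of ITGB1 was -0.03. TNFRSF1B had 248 CPM in A.G.-ES and 142 CPM in untreated. ITGB1, an integrin chain used by memory lymphocytes, had 314 CPM in A.G.-ES and 149 CPM in untreated members (ratio 2.11, 1.32 to 3.54), and ITGA4 had 201 CPM in A.G.-ES and 113 CPM in untreated. JCHAIN, which joins antibody units into polymers, had 76.6 CPM in A.G.-ES and 156 CPM in untreated (ratio 0.49, 0.27 to 0.90). Ribosomal protein genes served as a check of the scale: 30 of 31 lay within 1.5-fold, with a median log2 ratio of -0.03, and RPL37A was the exception. Among members with at least 2 FCER2 UMIs the ribosomal median was -0.59. Of the other lists, homing receptors had 2 of 5 genes higher and 1 lower, antibody secretion 0 higher and 2 of 3 lower, heat shock chaperones 1 of 5 higher and 1 lower, oxidative phosphorylation 1 of 5 higher and 0 lower, and memory and activation genes 1 of 2 higher. These counts stand beside 13.2% of all genes higher and 18.3% lower. The list of division genes had 1 measured gene, within 1.5-fold, and the 4 lists of other blood cells had 0 measured genes.

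**Figure D4:**
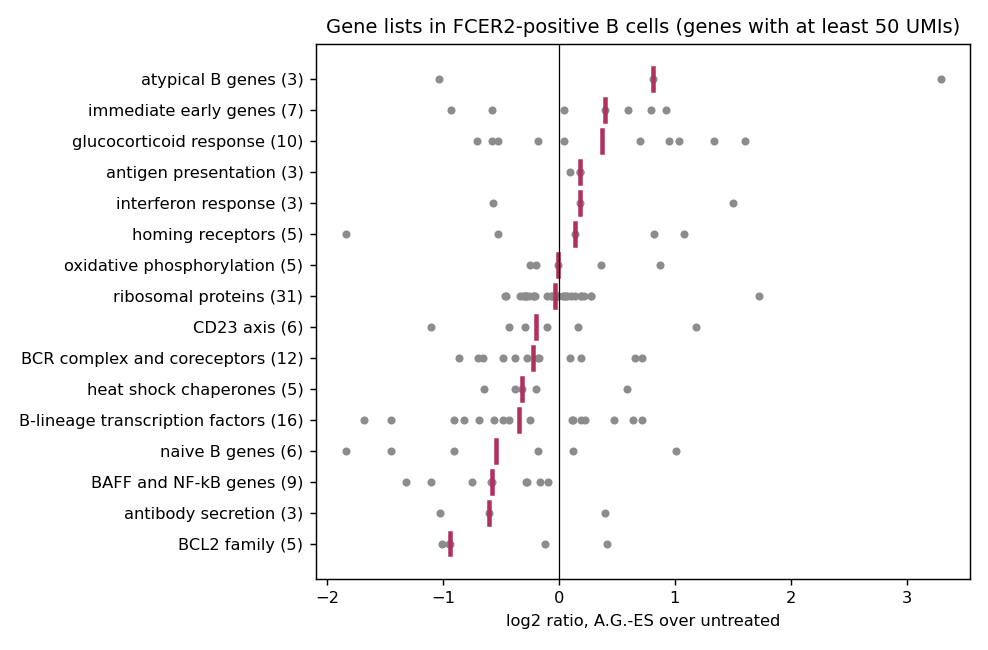
Log2 ratios of A.G.-ES over untreated members (horizontal axis) for the genes of 16 lists with at least 3 measured genes (rows, with the number measured in brackets). Grey points are genes with at least 50 UMIs outside the definition and red bars list medians; the BCL2 family sits lowest, at a median of -0.94 (-0.29 with no count minimum), and the glucocorticoid list at 0.37 (-0.37 without the 3 A.G.-ES members with monocyte transcripts).

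The genes with the largest ratios were led by 2 that rested on 3 cells. CFD, complement factor D, had 185 UMIs in A.G.-ES members and 0 in untreated members, at least 23.0-fold higher against a floor of 3 counts per library. S100A4, a calcium-binding protein of motile cells, had 130 UMIs in A.G.-ES and 0 in untreated members, at least 16.1-fold higher. The 3 A.G.-ES members with monocyte transcripts held 184 of the 185 CFD UMIs and 124 of the 130 S100A4 UMIs. Without them neither gene had enough UMIs to be compared.

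COX3, a mitochondrially encoded subunit of cytochrome c oxidase, had 1869 CPM in A.G.-ES and 234 CPM in untreated members (ratio 7.99, 5.64 to 11.7). Its ratio was 12 in FCER2-negative cells, 9.85 in SOX5-high cells and 12.3 in CD3-positive cells, so it ran across the library. Other mitochondrial transcripts had smaller ratios in members, of 1.23 for COX1, 1.03 for COX2, 1.10 for CYTB, 1.62 for ATP6 and 2.28 for ND1. HMCN2, annotated as a hemicentin of the extracellular matrix, was counted at 31190 CPM in A.G.-ES and 10158 CPM in untreated members (ratio 3.07), and its ratio was 2.74 in FCER2-negative, 3.78 in SOX5-high and 1.96 in CD3-positive cells. RPL37A had a ratio of 3.32 in members and 2.39 in CD3-positive cells.

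TNFSF10, which encodes the death ligand TRAIL, had 290 CPM in A.G.-ES, with UMIs in 44 of 79 cells, and 49.6 CPM in untreated members, in 3 of 21 cells (ratio 5.86, 2.75 to 14.9). Its ratios were 2.73 in FCER2-negative, 2.48 in SOX5-high and 1.81 in CD3-positive cells. ERC2 had a ratio of 5.71 in members, with 8 of the 9 untreated UMIs in 1 cell, and ratios of 14.3 in FCER2-negative and 12.4 in SOX5-high cells against 1.58 in CD3-positive cells. RBPMS, an RNA-binding protein, had ratios of 3.53 in members, 3.02 in FCER2-negative and 3.28 in SOX5-high cells, and VIM, the filament protein vimentin, of 2.52 in members, 2.14 in FCER2-negative and 2.12 in SOX5-high cells. MRPL17, PNN and UNC119 completed the 12 highest.

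At the low end, SNX29 had 143 CPM in A.G.-ES and 475 CPM in untreated members (ratio 0.30, 0.21 to 0.44), against ratios of 0.67 in FCER2-negative and 0.73 in SOX5-high cells. SMAD3, which carries the TGF-beta signal, had 166 CPM in A.G.-ES and 553 CPM in untreated (ratio 0.30, 0.21 to 0.42), with a ratio of 0.37 in FCER2-negative and 0.56 in SOX5-high cells. ANKRD33B had 227 CPM in A.G.-ES and 701 CPM in untreated (ratio 0.32, 0.24 to 0.44), with 0.28 in FCER2-negative, 0.38 in SOX5-high and 1.00 in CD3-positive cells. PTPRJ, a receptor phosphatase, had 137 CPM in A.G.-ES and 432 CPM in untreated (ratio 0.32, 0.22 to 0.47), with 0.35 in FCER2-negative, 0.65 in SOX5-high and 1.76 in CD3-positive cells. Its log2 ratio of -1.65 was -2.69 without the 3 A.G.-ES members with monocyte transcripts and -0.42, within 1.5-fold, with at least 2 FCER2 UMIs. LY6E, a surface protein induced by interferon, had 187 CPM in A.G.-ES and 496 CPM in untreated (ratio 0.38, 0.27 to 0.53). FOXP1, RPS6KA5, GTF2E2, TBL1XR1, WNK1, EIF4G3 and ZCCHC7 completed the 12 lowest, with ratios from 0.37 to 0.42. These ratios all come from the same pair of libraries, and whether members differed from the other cells in them was not tested.

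**Figure D5:**
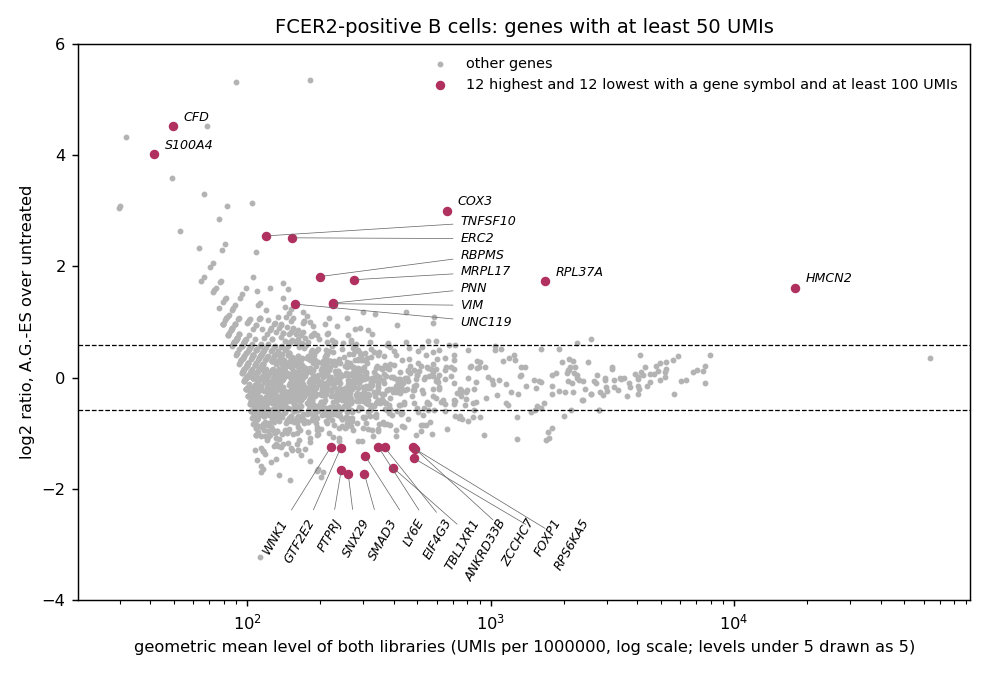
Log2 ratio of A.G.-ES over untreated members (vertical axis) against the geometric mean level of both libraries (UMIs per 1000000, logarithmic horizontal axis, levels under 5 drawn as 5). Points are genes outside the definition for which both libraries together gave at least 50 UMIs, dashed lines mark 1.5-fold, and the 12 highest and 12 lowest genes with a symbol and at least 100 UMIs are named; COX3, RPL37A and HMCN2 stand apart at high levels.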

How the data were processed

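Per the labels' protocols, mononuclear cells were isolated on a density gradient and libraries were made with a SeekOne DD 3′ kit. The authors deposited raw UMI counts, as 1 matrix of genes by barcodes per library. Not given in the sources used here are the aligner, counter, genome build and cell calling. Other columns with per-sample values numbered 0. The matrices name 26814 features, 16423 of them by a symbol, and all 26814 matched the RefSeq table. CD3G was not used here, and a few list members are counted but not reported by name here. The cell definition and the 22 gene lists were chosen with earlier results of these data known.

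Raw counts were summed per library and cell group and given as CPM, UMIs per 1000000. Ratios carry exact conditional binomial intervals, CPM exact Poisson and shares exact Clopper-Pearson intervals, all at 95%. Where a sum was 0, ratios were bounds against 3 counts. Genes needed 50 UMIs: over both libraries between libraries, or in each library over both groups within libraries. A gene was called apart at 1.5-fold, within libraries in both. Genes of the definition stayed out of counts and lists. With 1 library per group no model or test was run. Named genes were the 12 highest and 12 lowest with a symbol and at least 100 UMIs (against all other barcodes the 6 lowest), ranked within libraries by the smaller of both changes, plus list members with at least 50 UMIs; CR2, DTX1, ITGAX and others below that are named for their low counts, after their values were seen, as are genes of the figure.

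Alternatives covered barcode filters, doublets (Scrublet in scanpy 1.11.5, 0.8% per 1000 barcodes), gates, count minimum, thinning, equal weight of cells, totals and TMM scaling (edgeR 4.0.16). The ratio script was tested on simulated data. Python 3.11.15, numpy 2.4.6, scipy 1.17.1 and pandas 2.3.3 were used.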

Additional observations from a re-analysis of the deposited data

How the results depend on the processing

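No paired analysis was possible because each treatment has 1 library. The share of FCER2-positive B cells among kept barcodes was 0.180% in A.G.-ES and 0.0865% in untreated with at least 2 FCER2 UMIs, and 0.339% in A.G.-ES and 0.0989% in untreated with SOX5, NPAS3, MZB1 and DERL3 at 0 (added after the data were seen). In A.G.-ES it was 0.487% with at least 8 B-cell UMIs and 0.540% with cells thinned to 2000 UMIs before the definition was applied. Among conventional B cells the share was 4% in A.G.-ES and 2.27% in untreated with at least 2 FCER2 UMIs, 7.91% in A.G.-ES and 2.43% in untreated with cells thinned before the definition, and 6.05% in A.G.-ES and 3.45% in untreated with conventional cells thinned to 1000 UMIs. In each of these pairs A.G.-ES had the higher share.

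Counts of genes apart are given here as higher, then lower. Between libraries they were 20 and 36 of 303 genes with a minimum of 200 UMIs, 1529 and 1663 of 6795 with none, 75 and 84 of 545 thinned to 2000 UMIs, 60 and 84 of 356 with at least 2 FCER2 UMIs, 135 and 189 of 1178 with at least 8 B-cell UMIs, and 85 and 101 of 515 with SOX5, NPAS3, MZB1 and DERL3 at 0. TMM scaling gave 157 lower. FOXP1 changed sign to a log2 ratio of 0.68 with at least 2 FCER2 UMIs, but on fewer UMIs than the count minimum. BACH2 and NFKB1, which met that minimum in this setting, changed sign too. The cause was not tested. Of the single genes and list medians between libraries, 42 values moved beyond their counting interval and were not called reversed. A change of sign was called a reversal only for main values at least 1.5-fold apart. The naive list, at -0.54 and at 0.32 thinned, is therefore among the 42 values. The genes among them that came within 1.5-fold were GTF2E2 at -0.37 thinned, PTPRJ at -0.42 and WNK1 at -0.34 with at least 2 FCER2 UMIs, and PNN at 0.36 and ERC2 at 0.54 with SOX5, NPAS3, MZB1 and DERL3 at 0. That last setting gave the naive list a median of -1.41 over 3 genes. The medians of the ribosomal and oxidative phosphorylation lists lie within the TMM shift of 0. Against FCER2-negative cells the counts were 5 and 7 of 1130 genes at 200 UMIs, 380 and 289 of 12040 with no minimum, and 10 and 37 of 1553 thinned. Requiring 10 UMIs expected in members, an alternative added later because the larger group otherwise decides which genes are measured, gave 15 and 35 of 2203. The same alternative gave 92 and 190 of 2285 against all other barcodes, where thinning gave 383 lower, and 59 and 143 of 2196 against SOX5-high cells. Against SOX5-high cells they were also 150 and 227 of 3657 at 200 UMIs and 203 and 254 of 4109 thinned, with 818 higher with no minimum. With 21 untreated members, a gene at 50 UMIs over both libraries has few UMIs there, and such ratios are imprecise.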
